A study of Mus musculus with 24 samples.

Results

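Mitochondrial ribosomal protein genes encode the protein part of the ribosome that works inside mitochondria. They were taken here by symbol, as every gene of the mRNA table named Mrpl or Mrps followed by a number and at most 1 letter, which gave 78 of 36096 genes: 49 of the large subunit (Mrpl) and 29 of the small subunit (Mrps). Tissue was the medial frontal cortex, taken at postnatal day 28 from C57BL/6J mice of 2 genotypes, with 3 samples per sex and genotype. Controls carried Emx1-cre alone. The Dnmt3l genotype, Dnmt3l;Emx1-cre, came from crossing a conditional knock-in of Dnmt3l to Emx1-cre, so that every animal of the study carried Emx1-cre. Emx1-cre acts in the dorsal forebrain lineage, which gives the excitatory neurons and much of the glia of the cortex, while interneurons, microglia and vessels come from other lineages and were sampled with them. Libraries are named by genotype (C, control, or D, Dnmt3l), sex (M or F) and replicate, so that DF1 is the first Dnmt3l female, and values per group follow replicates 1 to 3. The labels do not say whether the 3 samples of a group came from separate animals, so p-values measure the spread between samples, which may be partly technical.

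The mitochondrial ribosome translates the few mRNAs of the mitochondrial genome, all of which code for subunits of the respiratory chain or of ATP synthase. Its ribosomal RNAs are made in the organelle, but all of its proteins are encoded in the nucleus, made in the cytosol and imported. It has proteins with bacterial counterparts, which lie around the decoding and peptidyl transfer sites, and many proteins that are found only in mitochondria. The symbols follow history and not always position: the products of Mrps18a and Mrps30 sit in the large subunit, and Mrps36 encodes a component of the 2-oxoglutarate dehydrogenase complex. Promoters of this family are known for sites of the ETS family factor GABP, of NRF1 and of YY1.

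Promoters of 69 of the 78 members were found in RefSeq's table for build GRCm38.p6, each as 250 bases before and 50 after the annotated start. The letters CCGGAAG (ETS family), searched on both strands, were in promoters of 26 of these 69 genes (37.7%), against 17.8% of the 11485 tested genes with a promoter and 9.93% of all 27025 genes in the table. GCATGCGC (NRF1) was in promoters of 8 members (11.6%, against 5.57% of tested and 3.05% of all genes), and AAGATGGCG (YY1) also in 8 (11.6%, against 3.15% and 1.64%). At least 1 of the 3 was found for 36 members (52.2%), against 24.4% of tested genes. The strings can overlap, since the end of CCGGAAG is the start of AAGATGGCG, and GCATGCGC can overlap its own reverse complement. Each string was counted once per gene. These matches are descriptions of the letters and were not tested as binding sites. Among members with a promoter, 27 of the 50 that were lower in Dnmt3l and 9 of the other 19 held at least 1 of the strings.

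The stretches below lie just before 5 members described later. Each ends before the start in the deposited table or in RefSeq, whichever is further upstream, and is cut where the next annotated gene begins. They show the strings in their setting, with the match in capitals: CCGGAAG, or CTTCCGG on the other strand, in the first 4, and GCATGCGC in Mrpl10. Each is written 5′ to 3′ on the gene's strand, which is the plus strand for all 5. The first lies between Ptcd2 and Mrps27 at chr13:99344706-99344785, the second between Helq and Mrps18c at chr5:100798599-100798626, and the others are Mrps18a at chr17:46110866-46110985, Mrpl58 at chr11:115403632-115403751 and Mrpl10 at chr11:97041440-97041559.
Mrps27: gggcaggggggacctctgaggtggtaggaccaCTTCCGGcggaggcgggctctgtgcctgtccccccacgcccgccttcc
Mrps18c: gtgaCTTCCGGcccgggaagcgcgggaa
Mrps18a: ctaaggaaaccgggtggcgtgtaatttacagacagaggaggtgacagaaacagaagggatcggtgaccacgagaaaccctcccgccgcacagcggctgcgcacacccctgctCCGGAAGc
Mrpl58: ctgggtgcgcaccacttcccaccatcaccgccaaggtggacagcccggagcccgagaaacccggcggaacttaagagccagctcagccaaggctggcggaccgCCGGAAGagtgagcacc
Mrpl10: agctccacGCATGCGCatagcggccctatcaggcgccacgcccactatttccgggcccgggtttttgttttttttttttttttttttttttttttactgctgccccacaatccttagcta
In Mrps27 the match starts 48 bases, in Mrps18c 24, in Mrps18a 8 and in Mrpl58 17 bases before the end of the stretch, and in Mrpl10 it starts 112 bases before it. Counted from the RefSeq start, the matches of Mrps27 and Mrpl58 are at the same positions (−48 and −17), while those of Mrps18c, Mrps18a and Mrpl10 are at −156, −26 and −134.

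The mRNA tables held 27074837 to 32100277 counts per control library and 22144970 to 26842726 per Dnmt3l library. Members took 31923 to 39339 of these counts in controls and 19178 to 30697 in Dnmt3l. Dnmt3l itself was at 0 to 3 counts in controls and at 521 to 1179 in Dnmt3l libraries, with the highest value in DF1. The controls CM3, CF1 and CF2 held 1078 to 1328 counts of the liver mRNA Alb, against 1 to 12 in the other 9 libraries. All 10 markers of excitatory cortical neurons were detected. So were all 7 of striatum and all 6 of choroid plexus, so detection alone does not set the labelled tissue apart. Levels below are in CPM, counts scaled to library size with TMM factors. They serve to compare libraries, and FPKM, which divides by transcript length, serves to compare genes.

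Messenger RNAs of the mitochondrial ribosome were lower in the Dnmt3l cortex across both subunits. Averaged over sexes, 56 of the 78 members fell, 1 rose (Mrpl48) and 21 did not pass the test (edgeR quasi-likelihood test, adjusted p below 0.05). Of all 15786 genes tested, 26.4% were lower and 25.2% higher by the same rule. The median member stood at 73.2% of the control level (a log2 change of −0.45), against a median log2 change of 0.02 over all tested genes, and 75 of the 78 changes were below 0. In bulk tissue, fewer cells of a type and less RNA per cell cannot be told apart. With library totals alone as the scale, higher genes made 35.4% of all calls in place of 48.9%, and with limma on FPKM 35.2%, while 61 members were lower with either (32.7% of all genes with library totals, 27.1% with limma).

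Both subunits fell. In the large subunit 37 of 49 genes were lower and 1 was higher, with a median log2 change of −0.51, and in the small subunit 19 of 29 were lower and none higher, with a median of −0.38. By position in the ribosome, with Mrps18a and Mrps30 in the large subunit and Mrps36 left out, 39 of 51 and 17 of 26 were lower. The difference between the subunits was not tested. The summed level of large subunit mRNAs was 1.62 to 1.69 times that of the small subunit in controls and 1.59 to 1.73 times in Dnmt3l, so the ranges of this ratio overlapped.

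**Figure D1:**
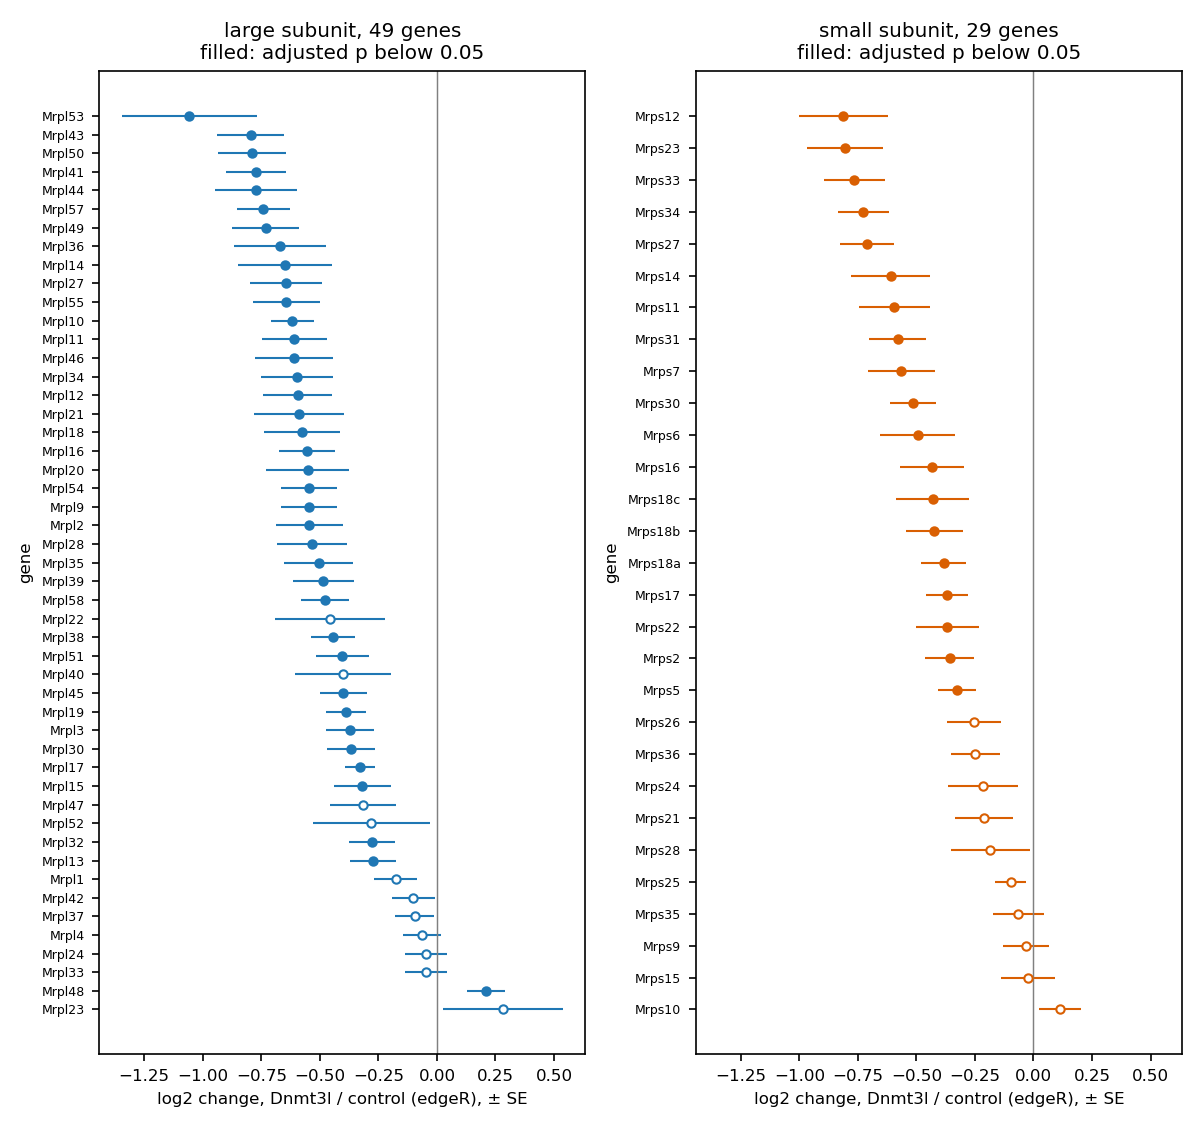
Log2 change of each member (x axis, Dnmt3l against control averaged over sexes, edgeR, ± SE) with genes sorted on the y axis, large subunit left and small subunit right; filled points passed adjusted p below 0.05. All filled points but Mrpl48 lie to the left of 0, down to Mrpl53 at −1.06.

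The fall was present in 5 of the 6 Dnmt3l libraries. Summed over the 78 members, the level was 1158 to 1199 CPM in the 6 controls, 858, 845 and 861 CPM in Dnmt3l males, and 1192, 881 and 875 CPM in Dnmt3l females. DF1 therefore stood within the control range, and the other 5 libraries lay well below it. In those 5 libraries 59 to 68 members were below the lowest control, and in DF1 11 were. The share of all genes below the lowest control was not counted for single libraries, so the 11 in DF1 are not read as a partial fall. The median log2 distance of the members from the control mean was −0.58 to −0.50 in the 5 and 0.03 in DF1. DF1 carried the highest Dnmt3l level of the series, 45.8 CPM against 20.7 to 27.0 CPM in the other Dnmt3l libraries. Control libraries with and without liver transcripts had like member levels: 1189, 1197 and 1158 CPM in CM3, CF1 and CF2, and 1199, 1174 and 1191 CPM in the others. Without DF1, 62 members were lower and 0 higher (edgeR, against 32.8% of all genes lower), and all 56 of the first count were among the 62. Without the 3 controls with liver transcripts, 33 were lower (15.5% of all genes lower), with a median of −0.47; this leaves 1 control female, assumed to vary like the other groups. Without these and DF1 together, 60 were lower (28.6% of all genes).

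**Figure D2:**
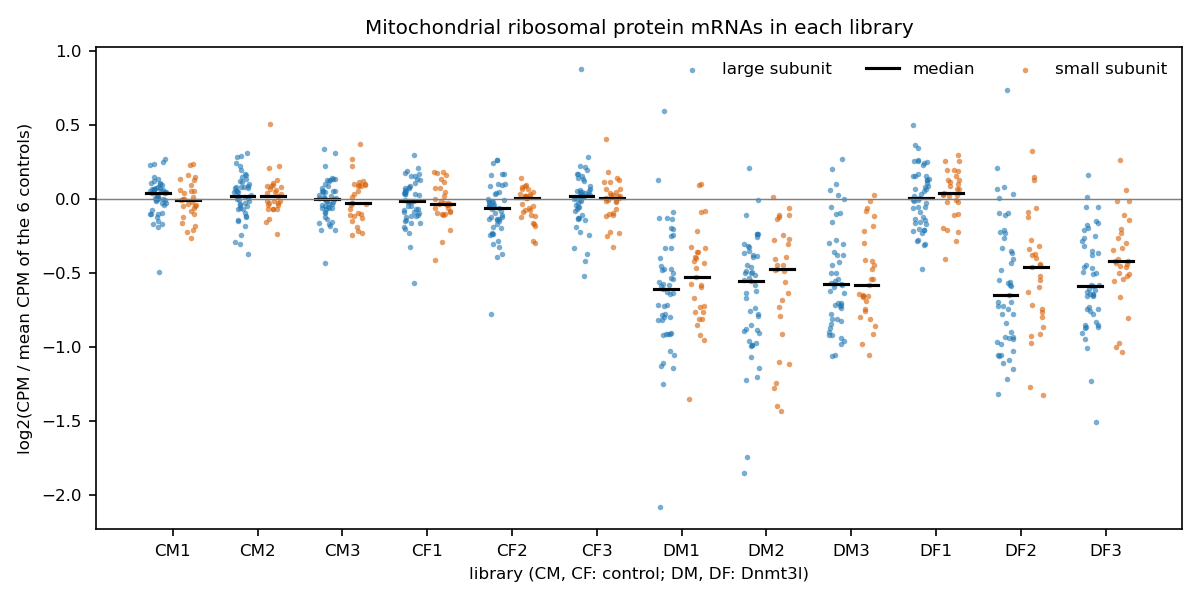
Log2 ratio of each member's CPM to the mean of the 6 controls (y axis) in each of the 12 libraries (x axis), with 1 point per gene and black bars at the medians of the large (blue) and small (orange) subunit. Medians of all members lie at −0.58 to −0.50 in 5 Dnmt3l libraries and at 0.03 in DF1, which sits with the controls.

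In 10 members all 6 Dnmt3l libraries, DF1 included, were below all 6 controls (6.83% of all tested genes did so), 7 of the large and 3 of the small subunit. With DF1 set aside, 50 members had the other 5 below all controls (23.7% of all genes). In the opposite direction Mrpl48 alone among the members had all 6 Dnmt3l libraries above all controls (5.47% of all genes). Mrps34 (chr17:24895116-24897502; this and later gene spans are in GRCm38), a mitochondria-specific small subunit protein needed for the stability of that subunit, had the widest gap. Its level was 17.2, 19.9 and 21.9 CPM in control males, 18.2, 17.3 and 17.5 CPM in control females, 11.7, 12.01 and 9.48 CPM in Dnmt3l males and 14.1, 10.8 and 9.50 CPM in Dnmt3l females. Even the highest Dnmt3l library, DF1, was under the lowest control, and the log2 change was −0.73 ± 0.11 (SE; edgeR adjusted p = 0.000375).

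Mrps33, another small subunit protein, was at 16.1, 15.03 and 13.6 CPM in control males, 13.9, 13.8 and 14.8 CPM in control females, 8.28, 5.51 and 9.04 CPM in Dnmt3l males and 11.96, 7.68 and 9.20 CPM in Dnmt3l females, with no overlap and a log2 change of −0.76 ± 0.13 (SE; edgeR adjusted p = 0.000669). Mrps27 (chr13:99344786-99415562), a pentatricopeptide repeat protein of the small subunit, was at 15.7, 18.9 and 18.8 CPM in control males and 17.4, 17.0 and 17.4 CPM in control females. It was at 6.85, 9.29 and 10.1 CPM in Dnmt3l males and 14.99, 10.3 and 13.9 CPM in Dnmt3l females, so that the males lay furthest down (−0.71 ± 0.12 averaged over sexes, edgeR adjusted p = 0.000511). The promoter printed above is shared head to head with Ptcd2, a pentatricopeptide repeat protein of mitochondrial RNA processing, which fell by 0.80 on the log2 scale (adjusted p = 0.00218, edgeR).

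In the large subunit the widest gap was that of Mrpl57, a mitochondria-specific protein. Its level was 11.4, 10.4 and 11.7 CPM in control males, 10.9, 11.0 and 12.3 CPM in control females, 5.10, 6.13 and 6.58 CPM in Dnmt3l males and 9.28, 7.63 and 6.03 CPM in Dnmt3l females. DF1 was the highest Dnmt3l library and still under every control (−0.74 ± 0.11, SE; edgeR adjusted p = 0.000403). Mrpl43 (chr19:45004829-45006442), also mitochondria-specific, was at 15.9, 19.4 and 18.9 CPM in control males, 15.1, 16.7 and 17.4 CPM in control females, 10.4, 8.22 and 9.12 CPM in Dnmt3l males and 14.9, 7.41 and 9.54 CPM in Dnmt3l females. The gap between DF1 and CF1 was narrow here, and the log2 change was −0.80 ± 0.14 (edgeR adjusted p = 0.000831). Smaller changes without overlap were those of Mrpl16, of the bacterial-type core (−0.55 ± 0.12), Mrpl38, of the central protuberance (−0.44 ± 0.09), and Mrpl17 (−0.33 ± 0.07; edgeR adjusted p 0.00140 to 0.00225 for the 3). The other two of the 7, Mrpl10 and Mrpl54, are described with the stalk and with the females. Mrpl38 missed the threshold in limma on FPKM (adjusted p = 0.0544 with a pseudocount of 0.1).

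**Figure D3:**
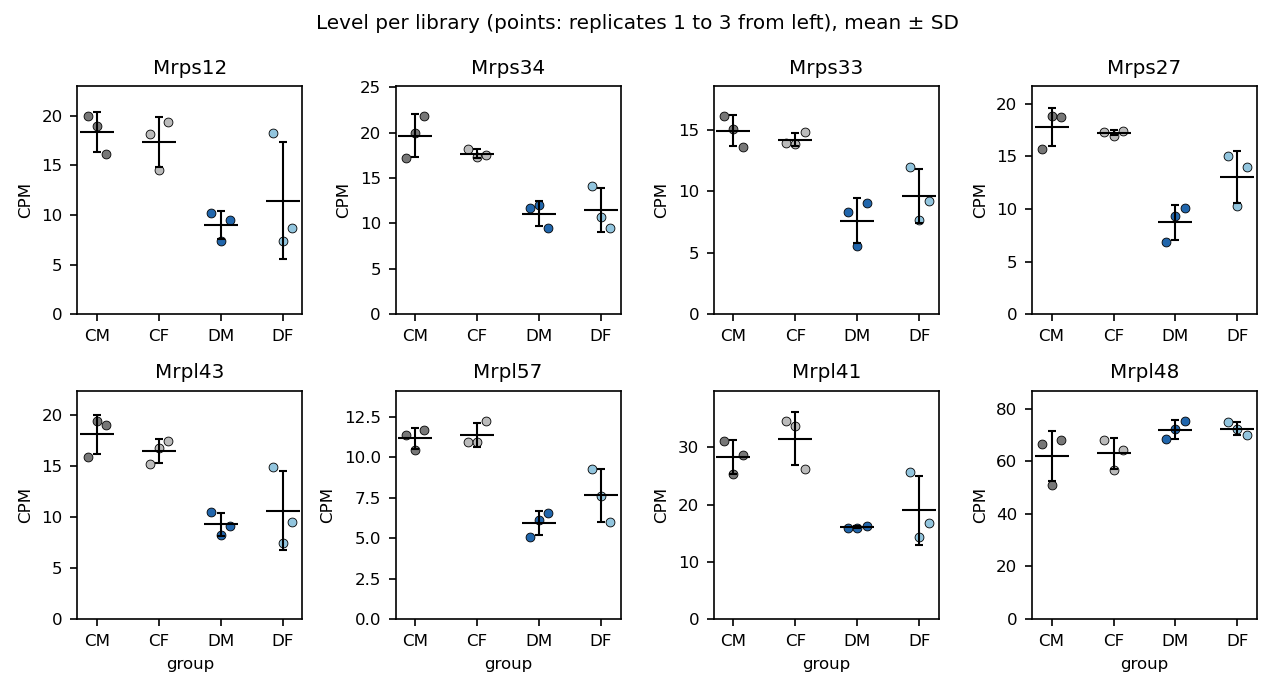
CPM (y axis, from 0) of 8 members in the 4 groups (x axis), with points for replicates 1 to 3 from left to right and the mean ± SD over 3 libraries. In 7 genes the Dnmt3l males lie below all controls and DF1 is the highest Dnmt3l point; Mrpl48 is the exception, at 68.3 to 75.4 CPM in Dnmt3l against 51.0 to 68.2 CPM in controls.

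The proteins of the decoding and peptidyl transfer core that bacteria share fell in 8 of 9 genes, with a median log2 change of −0.54. Mrps12 (chr7:28739641-28741820), which forms part of the decoding centre, changed most in the small subunit. It was at 20.0, 18.99 and 16.1 CPM in control males, 18.2, 14.6 and 19.4 CPM in control females, 10.2, 7.36 and 9.48 CPM in Dnmt3l males, and 18.2, 7.41 and 8.73 CPM in Dnmt3l females. DF1 was within the control range and the other 5 Dnmt3l libraries were below every control, and the log2 change was −0.81 ± 0.19 (SE; edgeR adjusted p = 0.00346), or −1.09 without DF1. Mrps12 was also among the most abundant members, at a mean of 52.8 FPKM. Mrps5, a core protein near the mRNA entry and the most abundant small subunit mRNA at 55.8 FPKM, fell less: 32.7, 34.4 and 37.3 CPM in control males, 32.9, 37.6 and 35.7 CPM in control females, 27.4, 26.8 and 25.3 CPM in Dnmt3l males and 35.0, 27.1 and 26.5 CPM in Dnmt3l females (−0.33 ± 0.08, edgeR adjusted p = 0.00502). Without the 3 controls with liver transcripts the estimate for Mrps5 was the same and missed the threshold (−0.33, adjusted p = 0.0628). The core gene that did not pass was Mrpl4 (−0.06 ± 0.08).

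All 3 genes of the stalk, the flexible arm that recruits translation factors, were lower. Mrpl10, which anchors the stalk, was at 20.4, 21.6 and 21.3 CPM in control males, 18.1, 19.4 and 20.7 CPM in control females, 13.0, 13.2 and 12.3 CPM in Dnmt3l males and 16.7, 11.8 and 12.2 CPM in Dnmt3l females. No Dnmt3l library reached the control range, and the change had the smallest adjusted p of the family (−0.62 ± 0.09, edgeR adjusted p = 0.000373). Mrpl12, the repeated stalk protein, varied more: 40.0, 29.5 and 37.1 CPM in control males, 46.8, 45.7 and 29.5 CPM in control females, 25.6, 28.01 and 20.2 CPM in Dnmt3l males and 32.5, 19.3 and 25.3 CPM in Dnmt3l females. DF1 overlapped the controls (−0.60 ± 0.15, edgeR adjusted p = 0.00514), and the call was lost without the 3 controls with liver transcripts (−0.37, adjusted p = 0.147). Mrpl11, which ties the stalk to the ribosomal RNA, changed by −0.61 ± 0.14 (adjusted p = 0.00302).

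Around the exit tunnel 2 of 5 genes fell. Mrpl45, which holds the ribosome at the inner membrane, changed by −0.40 ± 0.10 and Mrpl44, an RNase III-like protein, by −0.77 ± 0.18 (edgeR adjusted p = 0.00518 and 0.00302). Mrpl22 (−0.46 ± 0.23) and Mrpl24 (−0.05 ± 0.09) did not pass, but Mrpl22 was called without DF1 (−0.75, adjusted p = 0.00291). Mrpl23 had the highest estimate of the family, 0.28 ± 0.26, with an edgeR adjusted p of 0.372 and levels of 2.65 to 8.36 CPM in controls and 3.72 to 7.59 CPM in Dnmt3l. Without the 3 controls with liver transcripts the estimate was −0.10. Its value is uncertain, since the copy Mrpl23-ps1, at 24.5 FPKM against 7.39 for Mrpl23, may share its reads. The copy fell by 0.90 on the log2 scale (1888 counts over controls, 831 over Dnmt3l, edgeR adjusted p = 0.00339). The other 5 annotated copies of members held 0 to 3 counts in either genotype.

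Other genes of the rule behaved as follows. Mrpl53 (chr6:83109040-83109939), a mitochondria-specific protein of the large subunit, had the lowest estimate of all, at 48.0% of control: 2.98, 3.70 and 3.84 CPM in control males, 2.86, 2.43 and 2.41 CPM in control females, 0.716, 0.905 and 1.63 CPM in Dnmt3l males and 3.38, 1.22 and 1.07 CPM in Dnmt3l females. It is also a gene of low counts, with the widest error (−1.06 ± 0.29, edgeR adjusted p = 0.00836), and was not called without the 3 controls with liver transcripts (adjusted p = 0.0851). Mrpl50 was at 14.5 to 19.9 CPM in controls, 8.19, 7.57 and 8.57 CPM in Dnmt3l males and 16.4, 8.71 and 9.15 CPM in Dnmt3l females (−0.79 ± 0.14, adjusted p = 0.000881). Mrps23 (−0.80 ± 0.16) and Mrps14 (−0.61 ± 0.17) of the small subunit had DF1 within the control range as well, Mrps14 also DF2 (adjusted p = 0.00154 and 0.00888). Mrpl41, among the most abundant members at 45.5 FPKM, was at 31.1, 25.3 and 28.7 CPM in control males, 34.7, 33.7 and 26.3 CPM in control females, 15.98, 15.96 and 16.3 CPM in Dnmt3l males and 25.8, 14.4 and 16.9 CPM in Dnmt3l females (−0.77 ± 0.13, adjusted p = 0.000571). Here DF1 lay just inside the lower end of the controls.

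The 3 paralogs of ribosomal protein S18 each occupy a different place, Mrps18b and Mrps18c in the small subunit and Mrps18a in the large. All 3 fell: Mrps18a changed by −0.38 ± 0.09, Mrps18b by −0.42 ± 0.12 and Mrps18c by −0.43 ± 0.16 (edgeR adjusted p = 0.00477, 0.0110 and 0.0341). Mrps18c, at 3.19 to 4.42 CPM in controls and 2.03 to 3.30 CPM in Dnmt3l, lost its call when 1 of 7 single libraries was left out (CM2, CM3, CF1, CF3, DM1, DM2 or DF2; adjusted p 0.0594 to 0.0767). All 3 lost it without the controls with liver transcripts (adjusted p 0.0602 to 0.125). Mrpl58, a peptidyl-tRNA hydrolase related to release factors that rescues stalled ribosomes, was at 21.4, 21.5 and 19.04 CPM in control males, 22.2, 19.5 and 24.5 CPM in control females, 14.7, 13.4 and 14.4 CPM in Dnmt3l males and 20.6, 15.3 and 13.7 CPM in Dnmt3l females (−0.48 ± 0.10, adjusted p = 0.00219). Again DF1 was the Dnmt3l library that reached the control range.

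Mrpl48 (chr7:100545751-100608301), a protein of the central protuberance and the most abundant member at 72.5 FPKM, went the other way. It was at 66.6, 51.0 and 68.0 CPM in control males, 68.2, 56.6 and 64.1 CPM in control females, 68.3, 72.3 and 75.4 CPM in Dnmt3l males and 74.8, 72.2 and 69.9 CPM in Dnmt3l females. The highest control and the lowest Dnmt3l library were nearly equal, and the log2 change was 0.21 ± 0.08 (edgeR adjusted p = 0.0424). The call was lost under 13 of 24 alternatives, among them leaving out any of 9 single libraries (CM2, CF2, CF3 and each Dnmt3l library; log2 change 0.13 to 0.23, adjusted p 0.0504 to 0.141). Most of its counts went to 2 transcripts, ENSMUST00000150042 with 43.2% and ENSMUST00000127253 with 37.1% of the gene's total. The first took 49.1% in controls and 36.8% in Dnmt3l, and the second 29.0% and 45.8%. Mrpl48 overlaps Rab6a, a Golgi GTPase gene on the other strand at a mean of 103 FPKM that fell by 0.87 on the log2 scale (adjusted p = 0.00105). Whether the authors' counting used strand was not given in the sources used here, so reads of the overlapping stretch cannot be told apart.

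The 21 members that did not pass had log2 changes from −0.46 (Mrpl22) to 0.28 (Mrpl23), and 6 of them were lower without DF1. Mrps21, the third most abundant small subunit mRNA at 47.8 FPKM, was at 8.98 to 12.5 CPM in controls, 7.07, 8.60 and 8.65 CPM in Dnmt3l males and 12.7, 7.72 and 10.5 CPM in Dnmt3l females (−0.21 ± 0.13). It was called on FPKM (limma, −0.47, adjusted p = 0.00685) and without DF1 (−0.32, adjusted p = 0.0223). Changes within about 1 SE of 0 were found for Mrps9 (−0.03 ± 0.10), Mrps15 (−0.02 ± 0.12), Mrpl24 and Mrpl33 (−0.05 ± 0.09). At the low end of abundance, Mrpl35 (4.11 FPKM) fell by 0.51 and Mrps30 (4.87 FPKM) by 0.51 on the log2 scale (adjusted p = 0.0127 and 0.00103). By level, 30 of the 39 with lower mean FPKM and 26 of the 39 with higher mean FPKM were called lower, with medians of −0.49 and −0.42. The share of all genes called lower was not counted by level, so these 2 counts are not compared.

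Members differed in length. By count-weighted transcript length, 21 members were at most 1000 bases (median log2 change −0.55, 14 lower), 34 were 1000 to 2000 bases (−0.55, 26 lower), 15 were 2000 to 3000 bases (−0.33, 10 lower) and 8 were longer (−0.35, 6 lower). All tested genes of the same 4 length classes had medians of 0.04, −0.12, −0.03 and 0.07. Members were below the class median of all genes in every class, and the class of 1000 to 2000 bases was also the lowest over all genes. The share of all genes called lower was not counted by class, so the counts of lower members are not compared between classes. The part of length in the result was not tested.

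Members lay on 17 chromosomes, and 32 of them (41.0%) started within 1000 bases of a gene on the opposite strand, against 13.97% of all tested genes. Mrps11 and Mrpl46, whose starts are 412 bases apart on chromosome 7, formed the pair within the family. Mrps11 changed by −0.60 ± 0.15 and Mrpl46 by −0.61 ± 0.17 (edgeR adjusted p = 0.00569 and 0.00843). Of the 30 partners outside the family 27 were tested, and 6 were lower and 6 higher. Neither share was above that of all tested genes (26.4% lower and 25.2% higher). Partners that fell included Ptcd2, Psma2 of the proteasome (75 bases from Mrpl32, log2 change −0.54) and Ndufs6 of complex I (29 bases from Mrpl36, −0.41). Partners that rose beside a member that fell included Eme2 (29 bases from Mrps34, 0.43), Helq (29 bases from Mrps18c, 0.37) and Apba3 (26 bases from Mrpl54, 0.38). For the 28 members that overlap another annotated gene 20 were lower, and for the 50 that do not 36 were lower.

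Males and females were then taken apart. In males 51 members fell and none rose (33 large, 18 small; 22.7% of all genes were lower), with a median log2 change of −0.57. In 64 members the 3 Dnmt3l males lay below the 3 control males, as in 31.7% of all tested genes. In females 5 members fell (4.38% of all genes), with a median of −0.28: Mrpl41, Mrpl57, Mrpl10, Mrpl54 and Mrps34. In 13 members the 3 Dnmt3l females lay below the 3 control females (12.1% of all genes). Mrpl54, a member chosen for mention after its values were seen, was the one of the 5 not called in males: 7.75, 6.16 and 6.80 CPM in control males, 8.05, 8.998 and 7.85 CPM in control females, 5.46, 5.80 and 6.15 CPM in Dnmt3l males and 5.47, 3.52 and 4.83 CPM in Dnmt3l females.

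The female count changed with any library left out, also with male ones, which enter the shared estimate of spread but not the female means. Leaving out any 1 library other than DF1 left 0 to 2 members lower, and 5 to 203 of all 15786 genes in place of 691. The female median stayed at −0.28 whichever male library was left out, and was −0.18 without DF2 and −0.17 without DF3. Without DF1 47 members were lower in females (32 large, 15 small; 25.3% of all genes), with a median of −0.51, and 40 of them were also lower in males. A fit that weights libraries by their fit to the group (limma-voom), in which DF1 had a weight of 0.101 against 0.778 to 1.96 for the others, called 39 lower in females (21.7% of all genes). Without the 3 controls with liver transcripts 31 members were lower in males (13.5% of all genes) and 0 in females, where no gene at all was called lower (0.0%). The difference between the sexes itself was called for 0 of 78 members by edgeR (0.0% of all genes, DESeq2 and limma also 0 members). At an unadjusted p below 0.05 it was 14 of 78 members and 1117 of 15786 genes. Its median over the members was −0.30, the males being lower, and −0.06 without DF1. Between control females and control males 0 members were called by edgeR, DESeq2 or limma, and edgeR called 4 of all 15786 genes. At an unadjusted edgeR p below 0.05 it was 0 members and 244 of all genes.

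**Figure D4:**
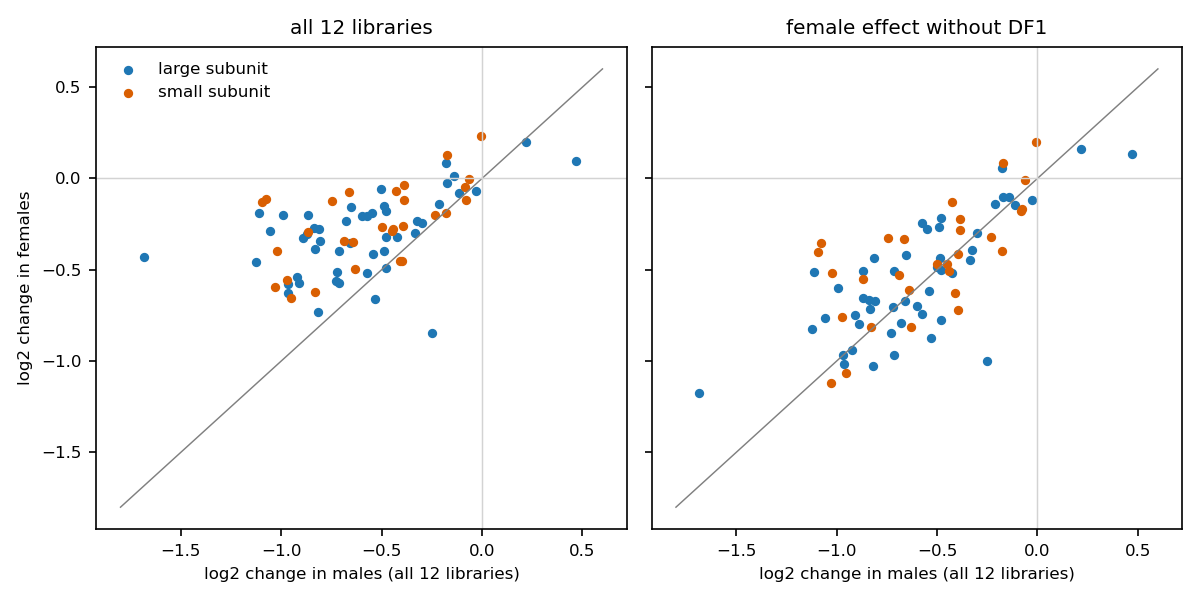
Log2 change of each member in females (y axis) against males (x axis, all 12 libraries), with all libraries left and with the female effect computed without DF1 right; the grey diagonal marks equal change. On the left most points lie above the diagonal (median −0.57 in males, −0.28 in females), and on the right they lie on both sides of it (female median −0.51).

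Among related genes, the 5 mitochondrial ribosomal proteins with other names (the sixth name listed, Ict1, is Mrpl58) all fell, with a median of −0.46: Dap3, a GTP-binding small subunit protein (−0.43 ± 0.07), Aurkaip1 (−0.62 ± 0.15), Gadd45gip1 (−0.57 ± 0.14), Chchd1 (−0.46 ± 0.16) and Ptcd3 (−0.21 ± 0.07). Of 13 translation factors and membrane insertion genes 6 fell and 2 rose (median −0.26). The elongation factors Tufm (−0.47 ± 0.10) and Tsfm (−0.71 ± 0.14) and the recycling factor Mrrf (−0.68 ± 0.09) fell, while Guf1, a back-translocase, rose (0.47 ± 0.11). Of 27 genes of ribosome assembly and ribosomal RNA maturation 7 fell and 4 rose (median −0.16), a share near that of all genes. Mettl17 (0.80 ± 0.08), Mpv17l2 (0.59 ± 0.12) and Malsu1 (0.37 ± 0.10) rose, and Rbfa, a maturation factor of the small subunit, fell (−0.77 ± 0.14). Of 20 mitochondrial aminoacyl-tRNA synthetase genes 5 fell and 2 rose (median −0.04), among them Rars2 (−0.43 ± 0.09), Gatc (−0.56 ± 0.12) and Mars2 (−0.31 ± 0.09), all lower. EdgeR adjusted p of the genes named here was at most 0.0310.

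Of 15 genes of mitochondrial transcription and mRNA stability 4 fell and 1 rose (median −0.13), and the 26.7% lower were near the 26.4% of all genes. The 4 were Tfb2m (−0.71 ± 0.12), Mterf2 (−0.73 ± 0.13), Tefm (−0.91 ± 0.20) and Tfam, which packages mitochondrial DNA (−0.50 ± 0.13). Among 10 biogenesis regulators the coactivator Ppargc1a (−0.30 ± 0.09) and Yy1 (−0.35 ± 0.11) fell and Nrf1 rose (0.29 ± 0.08; edgeR adjusted p 0.0108 to 0.0172), and the other 7 did not pass. Of 16 genes of mitochondrial mass and import 14 fell and 1 rose (median −0.48), with Tomm70a (−0.89 ± 0.10), Vdac2 (−0.71 ± 0.10), Timm23 (−0.73 ± 0.10) and Tomm20 (−0.46 ± 0.07) at the smallest adjusted p. Of 81 nuclear respiratory chain subunits tested (85 in the table) 48 fell and 2 rose (median −0.33), among them Ndufa9 (−0.61 ± 0.09), Atp5pb (−0.75 ± 0.11), Uqcrc2 (−0.75 ± 0.11) and Ndufv1 (−0.65 ± 0.10; adjusted p 0.000158 to 0.000385 for the import and chain genes named).

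For comparison, of 83 tested genes of the cytosolic ribosome (89 in the table) 12 fell and 8 rose, with a median of 0.00 and summed levels of 4387 to 4676 CPM in controls and 4070 to 4998 CPM in Dnmt3l, which overlapped. Rps15a (−0.44 ± 0.08), Rpl3 (−0.34 ± 0.07), Rpl5 (−0.40 ± 0.09) and Rps4l (−1.83 ± 0.19) fell (edgeR adjusted p 0.000142 to 0.00238). The mRNAs that the mitochondrial ribosome translates stood on the other side: 9 of 13 were higher and none lower, with a median of 1.09, among them mt-Co1 (0.91 ± 0.12), mt-Cytb (1.11 ± 0.14), mt-Nd1 (1.18 ± 0.16) and mt-Nd2 (1.17 ± 0.16; adjusted p 0.000254 to 0.000293). Their summed level was 24840 to 35050 CPM in controls, 36900 CPM in DF1 and 55970 to 77300 CPM in the other 5 Dnmt3l libraries. Whether these lists differ from the members was not tested.

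**Figure D5:**
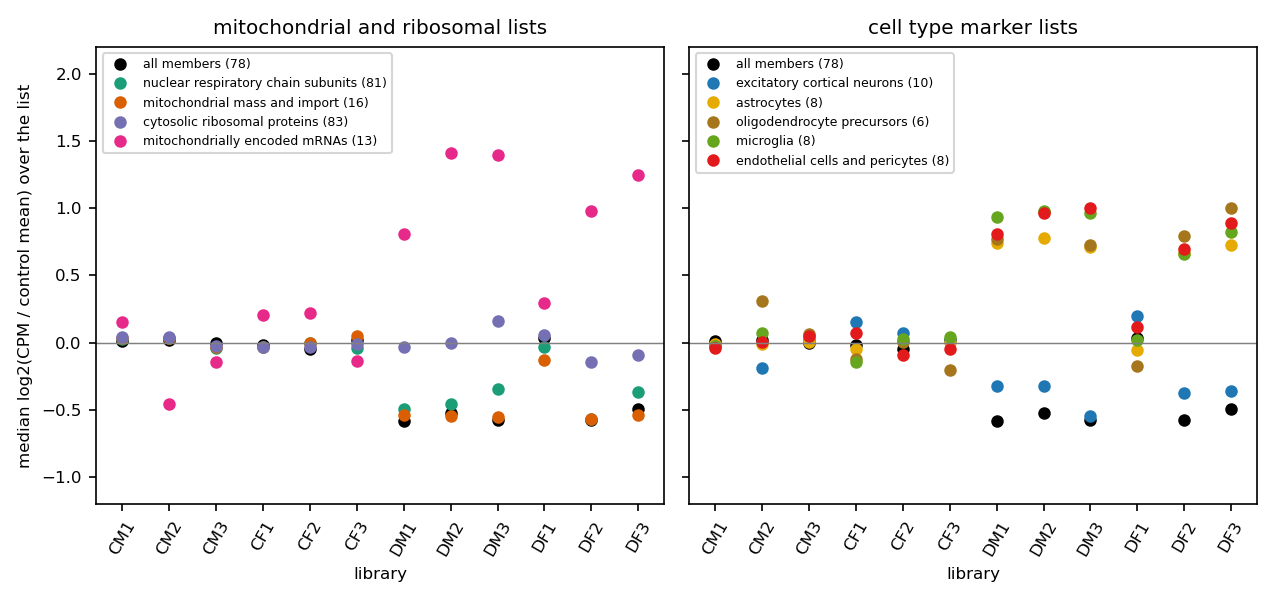
Median log2 ratio to the control mean (y axis) over the genes of a list, in each library (x axis), for mitochondrial and ribosomal lists left and cell type markers right; the number of genes is in brackets. Members, respiratory chain and import genes lie below 0 in 5 Dnmt3l libraries, cytosolic ribosomal proteins near 0, and mitochondrially encoded mRNAs and glial, microglial and vascular markers above 0, with excitatory neuron markers below 0, while DF1 lies at 0.03 for the members and at 0.29 for the mitochondrially encoded list.

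Summed marker levels of astrocytes, microglia, vessels and oligodendrocyte precursors were above all controls in the Dnmt3l libraries where the members fell. Those of oligodendrocytes and interneurons overlapped the controls, and that of excitatory neurons was above the controls in DF1 as well. Of 8 astrocyte markers 7 rose and 1 fell, with summed levels of 6645 to 7243 CPM in controls, 7430 CPM in DF1 and 11230 to 13700 CPM in the other Dnmt3l libraries. All 8 microglial markers rose (265 to 303 CPM in controls, 294 in DF1, 468 to 577 in the others), as did all 8 of endothelial cells and pericytes (285 to 313, 318, and 491 to 595 CPM). Of 6 oligodendrocyte precursor markers 5 rose (240 to 319, 244, and 471 to 543 CPM), and of 7 oligodendrocyte markers 5 rose and 1 fell (3593 to 6645, 3469, and 6337 to 10910 CPM). Among 10 excitatory neuron markers 4 fell and 2 rose (4511 to 5468, 5962, and 6112 to 7152 CPM), with Neurod6 (−1.57 ± 0.21) and Neurod2 (−0.65 ± 0.13) lower and Camk2a (0.47 ± 0.07) and Slc17a7 (0.40 ± 0.08) higher. Of 8 interneuron markers 4 fell and 3 rose (651 to 736, 605, and 522 to 660 CPM). None of these markers was at 0 in either genotype. Their part in the lower member levels was not tested.

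Red blood cell markers fell in 4 of 5 genes, with overlapping summed levels (106 to 513 CPM in controls, 72.2 to 218 CPM in Dnmt3l). Liver markers fell in 9 of the 10 tested, with Fgb and Serpina3k at 0 in all Dnmt3l libraries. Without Ttr, which the choroid plexus also makes, the liver list summed to 74.4 to 92.5 CPM in CM3, CF1 and CF2 and to at most 1.73 CPM in any other library, while the members summed to 1158 to 1197 CPM in those 3 and to 1174 to 1199 CPM in the other controls. Of 6 choroid plexus markers 1 fell, with overlapping sums (16.2 to 49.3 against 14.2 to 58.3 CPM). Of 7 striatal markers 1 fell, with sums of 483 to 843 CPM in controls and 186 to 893 CPM in Dnmt3l. Striatal sums of DF1 (197 CPM) and DF2 (186 CPM) were under every control, and those of the other Dnmt3l libraries were 569 to 893 CPM. The part of this difference in the member levels was not tested.

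Member genes had few products in the other RNA tables. The long non-coding table listed 1 transcript each of Mrps36, Mrps15 and Mrpl20, with 2 to 16, 0 to 55.0 and 0 to 3 expected counts per library and no separation of the genotypes. Exon circular RNAs were listed for 4 members. The one of Mrps35 (chr6:147055852-147061492, GRCm38) was above 0 in 5 libraries, of Mrps31 in 4, of Mrps18b in 2 and of Mrps27 in 1. Their deposited scores above 0 were 11 to 29, the lowest score above 0 of a library being 10 to 12, and no difference was detectable at this depth.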

How the data were processed

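Per the submitters' processing notes, build GRCm38, bedtools 2.17.0, DESeq2, HTSeq 0.6.1, HISAT2 2.0.1, cutadapt 1.9.1 and bcl2fastq 2.17.1.14 were used (roles not given). The rRNA-depleted libraries used a dUTP kit per the labels' protocols. The authors deposited expected counts and FPKM per transcript, per the file headers, and circular RNA values as a score. Expected counts were summed per gene and rounded. Rows with no gene ID (0.533% to 0.601% of counts) were left out. Genes with 0.5 FPKM in 3 of 12 libraries were tested with edgeR 4.0.16 (TMM, 4 group means, Benjamini-Hochberg, adjusted p below 0.05, R 4.3.3). DESeq2 1.42.0 and limma 3.58.1, on log2(FPKM + 0.1) and log2(FPKM + 1), were alternatives. FPKM of a gene is the sum over its transcripts. Members and lists were chosen with earlier results of these data known. Named per subunit were the 6 largest called changes (3 each way where both exist), the 3 highest and the lowest FPKM, up to 6 genes with no overlap, members called between sexes, 6 role genes, and 4 genes per list by adjusted p. One gene that this rule names is not reported here. Other members were named after their values were seen.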

Additional observations from a re-analysis of the deposited data

How the results depend on the processing

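Of the 24 alternatives, 30 members were called lower under each. The share of all genes called lower under every alternative was not counted, so these 30 are not read as particular to the family. No member called for the genotype effect changed sign under any of them, while 8 that were not called did, among them Mrpl23, Mrpl4, Mrpl24 and Mrpl33. Leaving out the 3 controls with liver transcripts gave 33 members for the genotype effect (24 large, 9 small), 31 in males and 0 in females. In females DESeq2 called 15 (1655 of all 15786 genes lower), limma on FPKM 3 with either pseudocount (245 and 282), limma-voom with weights 39 (3432), and the fit without those controls and DF1 (added after seeing the data) 33 (2999). Single libraries left out gave 0 to 47 members lower in females (47 without DF1, 0 to 2 otherwise). For the genotype effect they gave 51 to 62 lower (34 to 40 large and 17 to 22 small), with 3713 to 5184 of all 15786 genes lower. In males they gave 41 to 59 lower, with 2700 to 4641 of all genes lower. The median log2 change of the members was −0.61 to −0.40 over all alternatives. Of 24 named members called, 16 were called under every alternative and 8 lost the call at least once. The replicate numbers did not pair the samples (correlations of same-numbered deviations −0.33 to 0.088). With the replicate block 56 members were lower and 1 was higher for the genotype effect (37 lower and 1 higher in the large subunit, 19 lower in the small). Of all 15786 genes 4083 were lower and 3811 higher in this fit. It called 51 members lower in males (3425 of all genes) and 4 in females (643 of all genes). Depth limits genes such as Mrpl53 and Mrps18c, under 5 CPM, and the circular RNAs.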
